A study of Mus musculus with 92 samples.

Results

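The 10 genes described here encode ZBP1, the kinases and effectors of necroptosis, the death receptor arm that feeds into them, and the inflammatory caspases and pore protein of pyroptosis: Zbp1, Ripk1, Ripk3, Mlkl, Casp8, Fas, Tnfsf10, Casp1, Casp4 and Gsdmd. They were taken by gene symbol from a table of 29956 named genes, and all 10 were present. ZBP1 is an interferon-induced sensor of left-handed double-stranded RNA, the kind of ligand that the RNA editor ADAR1 keeps low, and it passes its signal to RIPK3 through a shared interaction motif. RIPK3 then activates MLKL, which breaks the plasma membrane in necroptosis, whereas caspase-8 on the RIPK1 scaffold steers cells to apoptosis and holds necroptosis back. In macrophages, caspase-1 and the lipopolysaccharide sensor caspase-4 (caspase-11 in mice) cut gasdermin D, whose pores release interleukin-1 family cytokines in pyroptosis.

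Messenger RNA was measured in 92 libraries of mouse myeloid cells in 25 groups. ER-Hoxb8 cells are bone marrow progenitors held immature by an estrogen-dependent Hoxb8 fusion protein, which become macrophages in M-CSF once estrogen is taken away. Those used for editing came from FVB mice heterozygous for Cas9 and were transduced with a non-targeting control guide (NTC) or with either of a pair of guides against Adar, sgRNA 1 and sgRNA 2, so that each line is a sorted population and not a clone. NTC and sgRNA 1 macrophages were also differentiated for 7 days with 0, 0.0006, 0.016, 0.4 or 10 uM baricitinib, an inhibitor of the Janus kinases that act below interferon receptors, with 3 to 4 libraries per genotype and dose. The lowest and middle doses are given here as in the sample labels, and the treatment protocol gives them as 0.00064 and 0.16 uM. The other groups were progenitors and monocytes from bone marrow (BM) of WT FVB mice, BM-derived (BMD) macrophages after 7 days, unedited ER-Hoxb8 cells with Cas9 as progenitors and after 4 and 7 days (3 libraries each), cells re-isolated from brains of Csf1r-/- hosts injected as pups with WT BM or ER-Hoxb8 cells (microglia-like cells of either source, here BMD MLCs and ER-Hoxb8 MLCs, 6 libraries each), and microglia of uninjected WT FVB mice (9 libraries). ER-Hoxb8 MLCs are labelled WT, from 3 libraries named GFPHox and 3 named WTHox, while the cultured unedited ER-Hoxb8 cells are labelled Cas9 het, so donor genotype and residence in brain cannot be told apart between them. The study describes the baricitinib cultures as differentiated independently and the unedited cultured groups as 3 biological replicates, with 3 independent ER-Hoxb8 lines. For NTC and guide libraries of the earlier experiment the sources used here do not say, and p-values measure the spread between libraries.

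Values are log2 CPM, normalized by the authors in 6 separate sets of libraries, and comparisons were made only within a set. Estimated depth ran from 7.7 to 21.6 M counts per library (median 13) in the 33 baricitinib libraries and from 22.1 to 34.0 M (median 25.2) in the 11 libraries of NTC and sgRNA 1 progenitors and macrophages. It was 17.3 to 28.5 M (median 24.4) in the 8 sgRNA 2 libraries, 33.1 to 53.0 M (median 45.1) in the 12 libraries of BM progenitors, monocytes, ER-Hoxb8 progenitors and day 4 cells, and 16.7 to 36.2 M (median 24.7) in the 27 libraries of cultured macrophages and cells from brain. NTC macrophage replicate 2 (20.1 M) forms a set by itself and entered no comparison. A gene was called when its adjusted p, over all genes tested in the set, was below 0.05. All 10 genes passed the filter on low values in every set. Transcript lengths were not at hand, so levels are compared within a gene and not between genes.

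Several libraries stood apart from their groups. In Adar1 KO macrophages at 0.4 uM, replicate 2 had 8.54 for Zbp1 where replicates 1 and 3 had 1.19 and 2.15, and it was also the highest of the 3 for Mlkl (7.34), Fas (7.45), Tnfsf10 (6.85), Casp8 (8.47), Casp1 (7.33), Casp4 (5.65) and Gsdmd (8.15). All 10 baricitinib groups share 1 estimate of spread, so this library widened the errors for most of the 10 genes also in comparisons without it (from 0.38 to 0.95 for Zbp1 in untreated KO against NTC cells, but hardly for Ripk3, where it did not stand apart), and results are given with and without it. The median of 6 interferon-stimulated genes was 10.99 in it, against 1.25 and 3.34 in the other KO libraries at 0.4 uM, 0.96 to 1.68 at 10 uM and 8.47 to 9.11 at the lower doses and without drug. For these genes it thus goes against its labelled dose, and whether the label or the culture differs was not tested. Microglia replicate 8 was at an end of the 9 for all 10 genes: the lowest for Zbp1 (-1.83), Gsdmd (-0.81), Fas (-3.62) and Tnfsf10 (1.96) and the highest for Mlkl (4.93), Casp4 (6.17), Casp1 (7.72), Ripk1 (6.13), Casp8 (9.39) and Ripk3 (4.00), and comparisons with cells from brain are also given without it. Microglia replicates 8 and 9 are the libraries named YSWT, and the other microglia libraries are named WT. Among unedited ER-Hoxb8 progenitors, the summed CPM of 5 macrophage markers was 431, 1867 and 4035 in the 3 libraries, and that of 5 progenitor markers ranged from 32.9 to 4083.

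Adar, the gene the guides were made against, was read first. Its mRNA was 7.42, 6.52 and 6.37 in Adar1 KO macrophages without drug and 5.12, 4.94 and 4.69 in NTC macrophages. The KO libraries were all higher (log2 fold change 1.85 ± 0.48 SE, adjusted p = 0.0051), so a loss of mRNA could not serve as a check of the label. At 10 uM baricitinib the order turned around, with 1.55, 2.15, 2.91 and 2.03 in KO libraries against 3.70, 3.64 and 3.22 in NTC libraries (log2 fold change -1.36 ± 0.45, adjusted p = 0.0146). Adar is itself interferon-inducible.

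Zbp1, the sensor, carried the largest difference of the 10 genes. In Adar1 KO macrophages without drug its level was 6.97, 6.86 and 6.90, and in NTC macrophages 3.01, 2.08 and 2.39. Every KO library lay far above every NTC library, a 21.3-fold difference (log2 fold change 4.42 ± 0.95 SE, 95% interval 2.46 to 6.37, adjusted p = 0.00105). The study shows Zbp1 in its heatmaps of interferon-stimulated genes for these samples, so its choice for this report was not blind to them.

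Zbp1 fell with baricitinib in both genotypes. KO levels were 6.68, 7.44 and 7.31 at 0.0006 uM and 7.54, 7.57 and 7.03 at 0.016 uM, near the level without drug, and then 1.19, 8.54 and 2.15 at 0.4 uM and 0.11, 0.19, 0.29 and -0.14 at 10 uM. NTC levels were 2.24, 2.47 and 2.53 at 0.0006 uM, 2.07, 1.05, 0.84 and 0.98 at 0.016 uM, 0.40, -0.99, 0.22 and 1.01 at 0.4 uM, and -0.11, -0.85 and -1.23 at 10 uM. The NTC level was thus already lower at a dose where the KO level was not, although that NTC difference did not pass the test (log2 fold change -1.26, adjusted p = 1). At 10 uM the change from no drug was -6.80 ± 0.89 in KO cells (adjusted p = 1.81e-07) and -3.23 ± 0.95 in NTC cells (adjusted p = 0.0242), and KO and NTC libraries then overlapped, with a difference of 0.85 that was called only narrowly without KO 0.4 uM replicate 2 (adjusted p = 0.47 with it, 0.048 without it). About 3.9 estimated counts stand behind the lowest NTC value, so the lower end of that range is loosely measured. The KO effect was smaller at 10 uM than without drug (difference -3.57 ± 1.31, adjusted p = 0.0314). That call was lost without NTC replicate 2 or 3 or KO replicate 1 of the untreated groups or NTC replicate 1 at 10 uM (adjusted p 0.0554 to 0.0725), and the NTC call at 10 uM was lost without untreated NTC replicate 1 or 3 or 10 uM replicate 2 or 3 (adjusted p 0.056 to 0.101). Without KO 0.4 uM replicate 2, both calls had smaller errors, with adjusted p of 3.17e-06 and 8.40e-07, and the NTC decrease at 0.4 uM (-2.33) was also called (adjusted p = 2.60e-04).

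**Figure D1:**
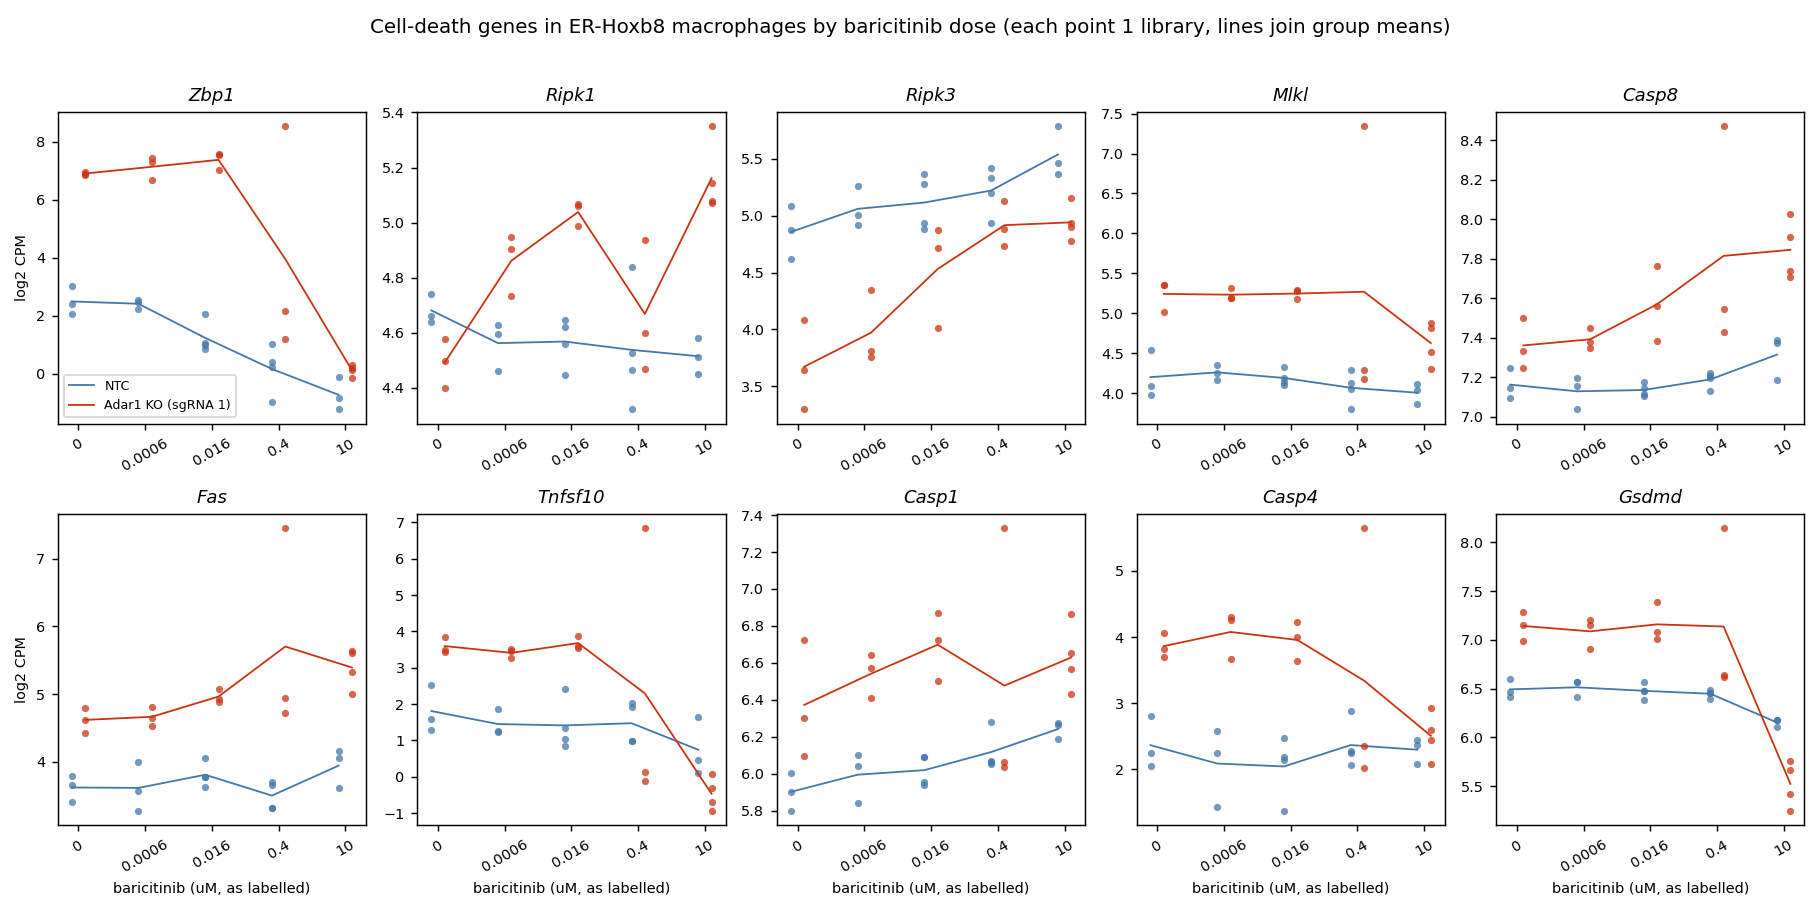
Level of each of the 10 genes (log2 CPM, vertical axes) against the labelled baricitinib dose (uM, horizontal axis) in NTC and Adar1 KO macrophages, with 1 point per library and lines through the group means. Zbp1 and Tnfsf10 lie far apart between genotypes at the low doses and near each other or in the opposite order at 10 uM, and KO 0.4 uM replicate 2 is the isolated high point in several panels.

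Ripk3, the kinase that ZBP1 engages, went the other way in this experiment. It was 3.30, 3.64 and 4.08 in KO macrophages without drug and 4.62, 5.08 and 4.87 in NTC macrophages. All KO libraries were below all NTC libraries (log2 fold change -1.18 ± 0.21, adjusted p = 1.45e-04). With 10 uM baricitinib it was 4.78, 4.94, 5.15 and 4.90 in KO and 5.46, 5.78 and 5.37 in NTC cells. It rose from no drug in both, by 1.27 ± 0.20 in KO cells (adjusted p = 3.29e-06) and by 0.68 ± 0.21 in NTC cells (adjusted p = 0.0334). The gap between genotypes was still called at 10 uM (-0.60, adjusted p = 0.0166), and the change of that gap, 0.59, was not (adjusted p = 0.112). Some of these results leaned on single libraries. The NTC increase was lost without untreated replicate 1 or 3 or 10 uM replicate 1 or 2 (adjusted p 0.0654 to 0.161), the gap at 10 uM was lost without NTC replicate 2 (-0.47, adjusted p = 0.1), and the change of the gap was called without untreated KO replicate 3 (0.79, adjusted p = 0.0353).

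Mlkl, the membrane-breaking effector, was 5.36, 5.01 and 5.35 in untreated KO macrophages and 3.97, 4.54 and 4.09 in NTC macrophages. The groups did not overlap, but the difference of 1.04 ± 0.42 missed the threshold in the fit on all libraries (adjusted p = 0.0723) and passed it without KO 0.4 uM replicate 2 (adjusted p = 3.50e-06). At 10 uM it was 4.82, 4.51, 4.30 and 4.88 in KO cells, all below the untreated KO libraries (-0.62, adjusted p = 0.175, or 3.69e-04 without that replicate). NTC levels stayed between 3.80 and 4.54 at all 5 doses.

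Ripk1, the scaffold kinase, and Casp8, the protease that cuts it, moved little without drug. Ripk1 was 4.40, 4.50 and 4.58 in KO and 4.74, 4.66 and 4.64 in NTC cells (-0.19, adjusted p = 0.272). At 10 uM it was 5.08, 5.35, 5.07 and 5.14 in KO and 4.45, 4.51 and 4.58 in NTC cells. The KO libraries, all lower without drug, were all higher here (0.65 ± 0.11, adjusted p = 3.84e-05), and the change of the KO effect was called (0.84 ± 0.17, adjusted p = 2.84e-04). This order was not particular to 10 uM. KO libraries were also all higher at 0.0006 uM (4.73 to 4.95 against 4.46 to 4.63) and 0.016 uM (4.99 to 5.07 against 4.45 to 4.65). At 0.4 uM the groups overlapped (4.47 to 4.94 in KO and 4.32 to 4.84 in NTC cells). Casp8 rose in KO cells from 7.25, 7.34 and 7.50 to 7.91, 8.03, 7.71 and 7.74 at 10 uM (0.48 ± 0.15, adjusted p = 0.00487), while NTC cells went from 7.09, 7.25 and 7.15 to 7.37, 7.39 and 7.18 (0.15, adjusted p = 0.566). The difference between these changes was 0.33 and was not called (adjusted p = 0.224).

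Of the death receptor pair, Tnfsf10 encodes the ligand TRAIL and Fas the receptor of Fas ligand. Tnfsf10 was 3.45, 3.50 and 3.85 in untreated KO and 1.60, 1.29 and 2.54 in NTC macrophages. The groups were apart, yet the difference of 1.79 ± 0.96 was not called in the fit on all libraries and was called without KO 0.4 uM replicate 2 (adjusted p = 0.181 and 0.00104). At 10 uM it was 0.07, -0.70, -0.32 and -0.93 in KO cells, about 5 estimated counts at the lowest, a decrease of -4.07 ± 0.90 (adjusted p = 2.67e-04) that took KO libraries below the NTC values of 1.65, 0.11 and 0.47. The change of the KO effect, -3.0, was not called (adjusted p = 0.071). Fas was 4.43, 4.62 and 4.80 in untreated KO and 3.41, 3.79 and 3.66 in NTC cells (1.00 ± 0.38, adjusted p = 0.0561, or 1.10e-04 without that replicate). Unlike Tnfsf10 it did not come down with drug. At 10 uM it was 5.64, 5.60, 5.00 and 5.33 in KO and 4.06, 4.16 and 3.61 in NTC cells, again with all KO libraries higher (1.45 ± 0.36, adjusted p = 0.0016). Its increase over untreated KO cells, 0.77, was not called in the fit on all libraries (adjusted p = 0.0597) and was called without KO 0.4 uM replicate 2 (adjusted p = 2.81e-04) and without KO 10 uM replicate 3 (0.90, adjusted p = 0.0412).

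The 3 pyroptosis genes were higher in every untreated KO library than in every NTC library. Casp4 was 4.07, 3.70 and 3.82 in untreated KO and 2.80, 2.05 and 2.25 in NTC macrophages (1.50 ± 0.53, adjusted p = 0.0382). Gsdmd was 7.28, 7.15 and 6.99 against 6.41, 6.47 and 6.60 (0.65 ± 0.22, adjusted p = 0.0334). Both calls were weakly held: that of Casp4 was lost when any library but NTC replicate 1 was left out (adjusted p 0.0641 to 0.122), and that of Gsdmd when any but KO replicate 3 was (adjusted p 0.0518 to 0.113). Casp1 was 6.10, 6.30 and 6.72 against 5.80, 5.90 and 6.00, not called in the fit on all libraries (0.47, adjusted p = 0.0953, or 0.00466 without KO 0.4 uM replicate 2).

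At 10 uM the 3 genes parted. Gsdmd went to 5.42, 5.25, 5.76 and 5.66 in KO cells, below the NTC values of 6.10, 6.18 and 6.18. It fell by 1.62 from untreated KO cells (SE 0.21, adjusted p = 1.43e-07) and ended lower than in NTC cells (-0.63, adjusted p = 0.0157, or 0.0572 at -0.54 without KO replicate 2), so that its KO effect changed sign between doses (difference -1.28 ± 0.31, adjusted p = 0.00172). Casp4 went to 2.92, 2.59, 2.08 and 2.44 in KO cells, overlapping the NTC values of 2.37, 2.08 and 2.45, a decrease of -1.35 ± 0.50 (adjusted p = 0.0184, or 0.0607 at -1.25 without untreated KO replicate 1). The change of its KO effect was not called (-1.29, adjusted p = 0.163). Casp1 stayed at 6.65, 6.86, 6.43 and 6.57 in KO cells and 6.19, 6.27 and 6.26 in NTC cells, with no call against untreated cells (0.26, adjusted p = 0.245, and 0.34, adjusted p = 0.294).

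Counted over the 10 genes, 3 rose and 1 fell in untreated Adar1 KO against NTC macrophages, 4 called where 25.3% of the 11152 genes tested were called. Without KO 0.4 uM replicate 2 it was 8 (7 higher, Ripk3 lower) beside 30.8% of all genes. With drug, 5 were called at 0.0006 uM (29% of all genes), 9 at 0.016 uM (32.2%), 5 at 0.4 uM (13.5%) and 5 at 10 uM (45.3%). Without that replicate the counts at those doses were 10, 10, 3 and 9, beside 33.8%, 36.9%, 6.62% and 50.6% of all genes. The 3 at 0.4 uM were then Zbp1 (1.51) and Fas (1.32), higher in KO cells, and Tnfsf10 (-1.46), lower, where the fit on all libraries had Tnfsf10 at 0.82, not called. At 10 uM the calls gained in this way were Zbp1 (0.85), Mlkl (0.62) and Casp1 (0.39), higher, and Tnfsf10 (-1.21), lower. Other single libraries also moved the counts, though the share of all genes was not counted in those fits. The 4 without drug became 2 when NTC replicate 2 or 3 or KO replicate 1 or 2 was left out, the 5 at 0.0006 uM became 3 without NTC replicate 1 or 2 or any 1 of the KO replicates, the 9 at 0.016 uM became 5 without KO replicate 2, and the 5 at 0.4 uM became 3 without NTC replicate 1, 3 or 4. In the fit on all libraries the share at 10 uM is near the background and is no result about these genes.

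Against no drug, KO macrophages had no call among the 10 genes at 0.0006 uM in limma (1 at an unadjusted p under 0.05, and 2.34% of all genes called). There were 2 at 0.016 uM (Ripk1 and Ripk3, both higher, beside 6.21% of all genes), 4 at 0.4 uM (26.6%) and 7 at 10 uM (65.8%). Without KO 0.4 uM replicate 2 there were 6 at 0.4 uM (32.8% of all genes), with Zbp1 (-5.24), Mlkl (-1.01), Tnfsf10 (-3.58), Casp4 (-1.68) and Gsdmd (-0.51) lower and Ripk3 (1.33) higher, and 9 at 10 uM (68.9%). The 2 calls at 0.016 uM went to 0 without untreated KO replicate 1 or KO 0.016 uM replicate 2, and to 1 without untreated KO replicate 2 or KO 0.016 uM replicate 1. The 4 at 0.4 uM went to 1 without untreated KO replicate 1 or 2. NTC macrophages had 0 calls among the 10 genes at 0.0006, 0.016 and 0.4 uM (0, 0 and 1 at an unadjusted p under 0.05), where limma called 0%, 0% and 0.00897% of all genes. At 10 uM they had 2 calls, Zbp1 and Ripk3, beside 13.8% of all genes (3 and 20.9% without that replicate). These 2 went to 0 without untreated NTC replicate 1 or 3 or 10 uM replicate 2, and to 1 without 10 uM replicate 1 or 3. The KO effect itself differed between 10 uM and no drug for 3 genes, Zbp1, Ripk1 and Gsdmd, beside 39.5% of all genes. Without KO 0.4 uM replicate 2, Casp8 (0.33), Tnfsf10 (-3.0) and Casp4 (-1.29) joined them, 6 in all beside 44.7%.

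Other measures moved with the 10 uM dose. The summed CPM of 5 macrophage markers was 2543 to 3103 (median 2699) in KO cells at 10 uM against 4783 to 5081 (median 4806) without drug, and 3761 to 4078 against 4672 to 4765 in NTC cells, with Cd68 the most abundant and none of the 5 at the floor of 3 counts. The sum of 4 immediate early genes was 73.1 to 94.6 in KO cells at 10 uM against 370 to 400 without drug. In NTC cells it was 177 to 209 against 436 to 491. Of the 4, Fos, Egr1 and Atf3 fell in KO cells while Jun rose (0.82, adjusted p = 0.00229). Progenitor markers, led by Cd34, summed to 10.9 to 14.6 CPM in KO cells at 10 uM against 1.26 to 3.42 without drug, with Kit, Elane and Prtn3 of the 5 at the floor at 10 uM. Cd34 carried this rise (2.80, adjusted p = 8.93e-08), and the others were too low to be tested. Mean log2 CPM went down for Prtn3 (-0.83 to -2.54) and Kit (-2.06 to -2.78) and up for Mpo (-2.17 to -1.69). Neutrophil markers, led by S100a8, summed to 54.1 to 67.6 CPM in KO cells without drug, 76.1 to 325 at 0.4 uM and 69.4 to 147 at 10 uM, with S100a9, Ngp, Ltf and Retnlg of the 6 at the floor at the higher doses, and to 74.9 to 95.4 and 25.2 to 87.0 in NTC cells without drug and at 10 uM. Lymphoid markers summed to under 1 CPM in every baricitinib library. Neural markers, led by Mbp, summed to 23.5 to 32.3 CPM in untreated KO and 49.8 to 61.4 in untreated NTC cells. The part of these shifts in the results above was not tested, and in bulk RNA fewer cells with a transcript and less RNA per cell cannot be told apart.

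Lists of related genes were read beside the 10, where 25.3% of all genes were called without drug and 65.8% in KO cells at 10 uM. Of 17 partners of RIPK1 and caspase-8 (adaptors, brakes and ubiquitin enzymes), 3 rose in untreated KO against NTC macrophages, Rnf31 (1.48, adjusted p = 0.00587), Cflar (0.72, adjusted p = 0.0177) and Rbck1 (0.55, adjusted p = 0.0338), and none fell, a share under that of all genes. RNF31 and RBCK1 are parts of the linear ubiquitin ligase, and Cflar encodes the caspase-8 inhibitor cFLIP. At 10 uM against no drug in KO cells, 3 rose and 7 fell, among them Rbck1 (-2.79), Ticam1 (-2.31), Rnf31 (-3.42) and Ikbkg (-0.99), again a share under that of all genes. Of 7 other death ligands and receptors, 5 were tested. Both TNF receptors rose without drug, Tnfrsf1b by 1.77 and Tnfrsf1a by 0.47, and in KO cells at 10 uM both fell, by -4.66 and -1.78, together with Tnf (-1.02), while Tnfrsf10b rose (1.05).

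Of 16 inflammasome genes, 14 were tested. In untreated KO cells Nlrc4 (0.84), Ninj1 (0.72) and Naip2 (0.51) rose and Gsdme, listed as Dfna5, fell (-0.91). NLRC4 and NAIP2 form a sensor of bacterial proteins, and NINJ1 ruptures the membrane late in lytic death. In KO cells at 10 uM, 3 rose and 5 fell against no drug, with Dfna5 (1.84), Nek7 (0.91) and Pycard (1.07) higher and Nlrp1b (-1.19) lower. Both counts are near the share of all genes and are no result about this list. Among 17 apoptosis genes, Mcl1 rose (0.54) and Bax (-0.48) and Apaf1 (-0.79) were among those that fell in untreated KO cells. At 10 uM in KO cells 6 rose and 8 fell, and those with the smallest adjusted p were Casp9 (-2.73), Bak1 (-3.79), Bcl2l11 (-1.90) and Bcl2l1 (-3.12). The median log2 fold change in untreated KO cells was 0.25 for both the partner and the inflammasome list, 0.47 for the death ligand and receptor list, -0.06 for apoptosis and 4.55 for 6 interferon-stimulated genes (5 of 6 higher), beside 0.82 for the 10 genes and -0.02 for all genes tested. In KO cells at 10 uM against no drug, all 6 interferon-stimulated genes fell (median -6.69), the 10 genes had a median of -0.18 and all genes one of 0.05.

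Over the 33 baricitinib libraries, which share genotype and dose groups, the genes nearest to Zbp1 in Pearson r were Slfn1 (r = 0.988), Ifit3 (0.984), Irf7 (0.982), Mx2 (0.981) and Xaf1 (0.98), with Spearman rho from 0.943 to 0.949 and r from 0.977 to 0.986 without KO 0.4 uM replicate 2. Those nearest to Mlkl were Samd9l (0.945), Igtp (0.944), Sp140 (0.941), 1600014C10Rik (0.937) and Psme2 (0.937), with rho lower, from 0.789 to 0.863, and r from 0.888 to 0.921 without that library. Among the 10 genes, r with Zbp1 was 0.858 for Casp4 (rho 0.628), 0.857 for Tnfsf10 (0.795), 0.835 for Gsdmd (0.864), 0.792 for Mlkl (0.656), 0.497 for Casp1 (0.257), 0.454 for Fas (0.276), 0.263 for Casp8 (0.132), 0.228 for Ripk1 (0.214) and -0.784 for Ripk3 (-0.765). Without KO 0.4 uM replicate 2, r with Zbp1 was further from 0 for Mlkl (0.835) and Ripk3 (-0.821) and nearer to it for the other 7: Tnfsf10 (0.855), Casp4 (0.853), Gsdmd (0.82), Casp1 (0.406), Fas (0.34), Ripk1 (0.19) and Casp8 (0.085). These values describe libraries that fall into groups by design, and no p is attached to them.

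Promoter windows are shown for 4 genes whose levels moved with genotype or dose. RefSeq promoters (build GRCm38.p6) were at hand for 8 of the 10 genes, with 10 start sites, and the window taken was 200 bases before to 10 bases after the start, 210 bases in all. Zbp1 and Gsdmd had no entry. Both strands were searched for GAAANNGAAA, the core of interferon-stimulated response elements, held by 2.36% of 32851 promoters of this length, and for TTCNNNGAA, the spaced palindrome of STAT dimers, held by 5.8%. Capitals mark matches. The second Ripk1 start (chr13:34002674-34002883, + strand) holds TTCNNNGAA with first bases at -108 and -11 and GAAANNGAAA at -5, the last 2 overlapping each other. Fas (chr19:34290459-34290668, + strand) holds TTCNNNGAA at -93. Mlkl (chr8:111338196-111338405, - strand) and Tnfsf10 (chr3:27316877-27317086, + strand) hold neither run of letters in this window, as is also so for the other 6 windows.
Ripk1 second start: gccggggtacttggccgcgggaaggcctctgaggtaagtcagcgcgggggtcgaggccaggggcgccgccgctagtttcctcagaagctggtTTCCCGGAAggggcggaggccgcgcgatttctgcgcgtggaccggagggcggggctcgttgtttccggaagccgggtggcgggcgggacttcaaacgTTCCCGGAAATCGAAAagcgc
Fas: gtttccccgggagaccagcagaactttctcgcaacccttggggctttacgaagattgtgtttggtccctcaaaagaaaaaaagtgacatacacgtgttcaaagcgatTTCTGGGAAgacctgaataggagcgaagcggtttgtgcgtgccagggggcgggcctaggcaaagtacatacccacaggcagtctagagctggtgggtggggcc
Mlkl: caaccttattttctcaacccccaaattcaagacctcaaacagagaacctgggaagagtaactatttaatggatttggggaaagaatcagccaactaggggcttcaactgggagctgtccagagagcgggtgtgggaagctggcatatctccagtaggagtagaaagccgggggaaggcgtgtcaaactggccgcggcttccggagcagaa
Tnfsf10: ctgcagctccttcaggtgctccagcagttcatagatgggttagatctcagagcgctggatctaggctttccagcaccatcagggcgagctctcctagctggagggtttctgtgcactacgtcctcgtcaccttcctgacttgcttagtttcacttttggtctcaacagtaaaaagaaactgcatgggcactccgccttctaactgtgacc

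An earlier experiment, of its own normalization, compared sgRNA 1 and NTC cells before and after 7 days of differentiation. Adar mRNA was 6.96, 7.15 and 7.01 in sgRNA 1 macrophages and 5.73 and 5.67 in the NTC macrophages of the same set (1.34, adjusted p = 9.76e-04), and in progenitors 4.36, 4.23 and 4.24 against 4.20, 3.42 and 4.28 (0.31, adjusted p = 0.924). Zbp1 was 8.52, 8.07 and 7.31 in sgRNA 1 macrophages against 3.51 and 3.14, wholly apart (4.64 ± 0.44, adjusted p = 1.87e-05). Mlkl was 6.00, 6.15 and 5.49 against 3.27 and 2.87, also wholly apart (2.81 ± 0.20, adjusted p = 2.45e-06). Tnfsf10 was 4.57, 4.13 and 3.58 against 1.53 and 0.87 (2.89 ± 0.48, adjusted p = 0.00122). All sgRNA 1 libraries were again the higher ones.

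Ripk3 was higher with sgRNA 1 here, at 3.94, 3.62 and 3.55 against 2.80 and 2.82 (0.89 ± 0.14, adjusted p = 7.99e-04), where in the baricitinib experiment it was lower. The experiments differ in normalization, sequencing site and read length, and the difference between their Ripk3 effects was not tested. Of the pyroptosis genes, Casp4 was 4.71, 4.41 and 4.42 against 3.03 and 3.16 (1.42, adjusted p = 1.28e-04) and Casp1 6.88, 6.81 and 6.63 against 6.00 and 5.80 (0.87, adjusted p = 0.00477). Gsdmd (0.45, adjusted p = 0.0299) and Casp8 (0.43, adjusted p = 0.0356) rose less, and both calls were lost when any library but sgRNA 1 replicate 3 was left out (adjusted p 0.0569 to 0.159 and 0.0889 to 0.139). Where that leaves a lone NTC library, it is assumed to vary like the other groups. Ripk1 (0.06) and Fas (-0.15) were not called. In all, 8 of the 10 genes rose and none fell, beside 21.8% of all genes called. S100a8 led the neutrophil list, whose sum was 68.6 to 81.9 CPM in sgRNA 1 macrophages and 15.2 and 10.8 in the NTC macrophages of the set, the macrophage list summed to 4938 to 5529 against 8799 and 7829, and the progenitor list, led by Cd34, to 5.16 to 12.2 against 2.39 and 1.67. The neural list, led by Mbp, summed to 21.1 to 28.6 against 58.9 and 56.9, and the endothelial list, led by Pecam1, to 19.9 to 22.0 against 7.39 and 19.6. Their part in the result was not tested. Of the other lists, partners had Sharpin (1.20) and Cflar (0.57) higher and Cyld (-0.57) lower, death ligands and receptors had Tnf higher (2.08), inflammasome genes had Dfna5 (0.89), Aim2 (0.65) and Nlrc4 (0.62) higher, and apoptosis genes had Bid (1.21), Bcl2 (2.19) and Bcl2l1 (1.11) among those higher. Dfna5 was thus opposite in direction to the baricitinib experiment, a difference that was not tested. The median was 0.88 for the 10 genes, 5.04 for the 6 interferon-stimulated genes and 0.05 for all genes. Quantile normalization moved the median of all genes in this comparison by -0.12, and with it the sign of Ripk1 flipped.

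**Figure D2:**
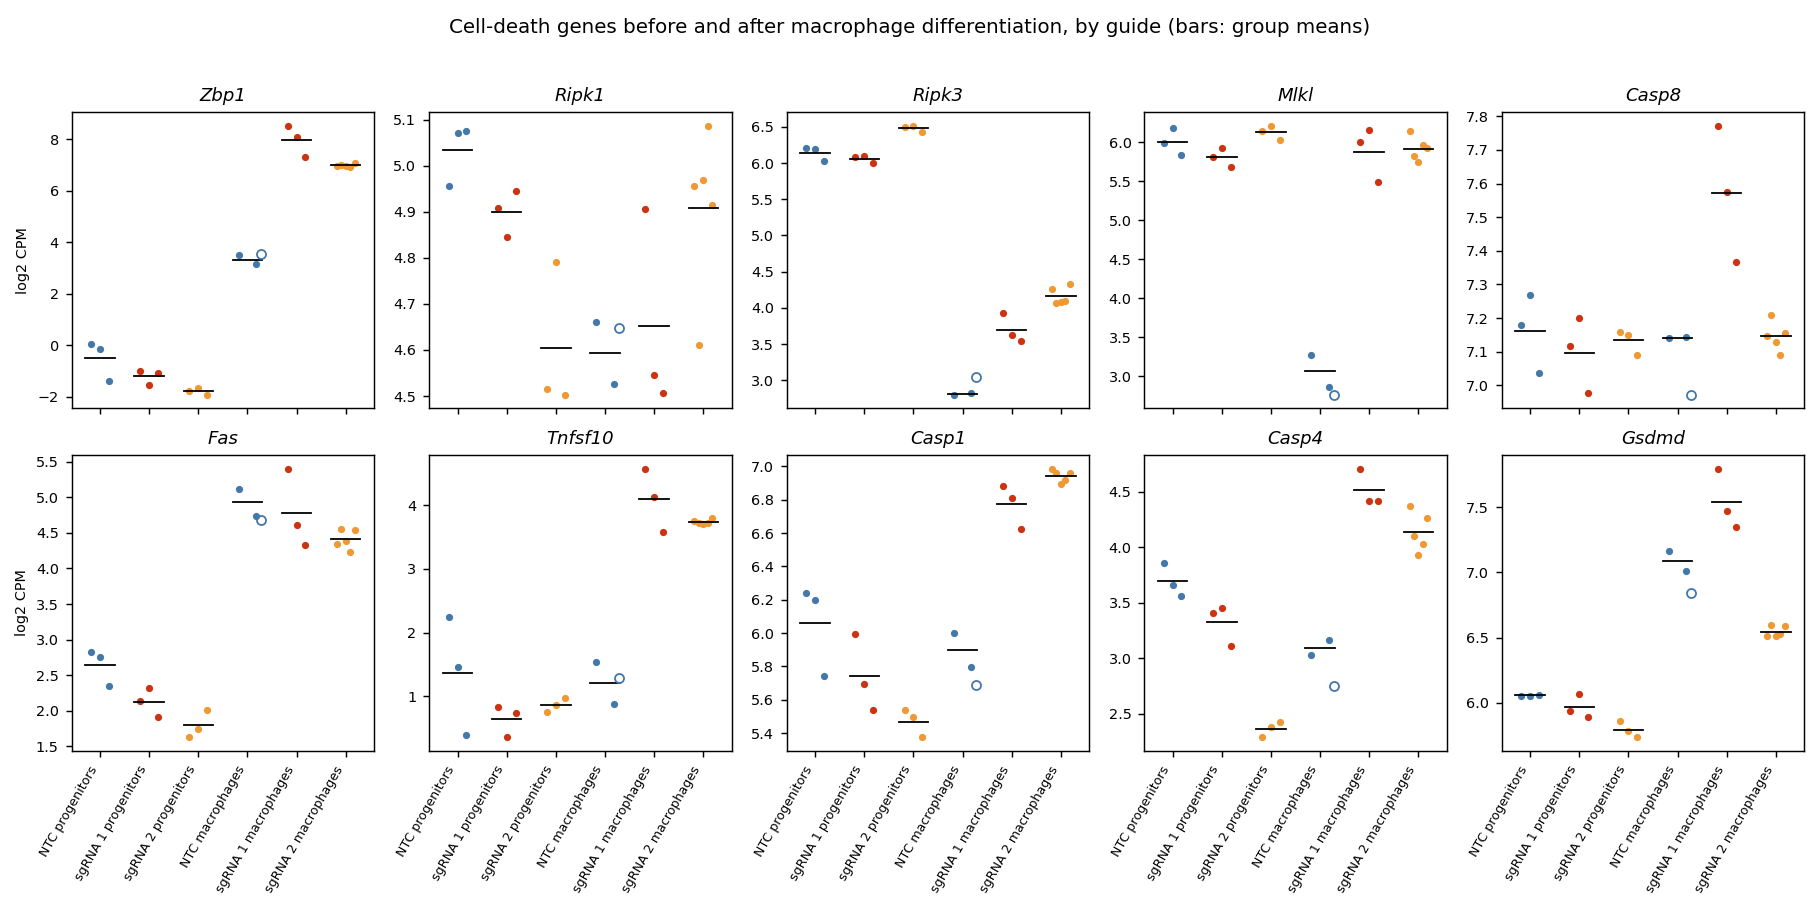
Level of the 10 genes (log2 CPM, vertical axes) in NTC, sgRNA 1 and sgRNA 2 progenitors and macrophages, with 1 point per library and bars at group means, where the sgRNA 2 groups were normalized separately and the open circle is NTC macrophage replicate 2, which has a normalization of its own. Within each normalization that holds both stages, Zbp1 is higher in macrophages than in progenitors. Among the NTC and sgRNA 1 groups it is highest in sgRNA 1 macrophages. Ripk3 is higher in progenitors than in macrophages of each line.

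Before differentiation none of the 10 genes was called. Zbp1 was -1.01, -1.53 and -1.09 in sgRNA 1 progenitors and 0.04, -0.15 and -1.38 in NTC progenitors, overlapping (-0.71, adjusted p = 0.902), with about 6.9 and 8.5 estimated counts at the lowest. The count in limma was 0 (1, Casp4, at an unadjusted p under 0.05), beside 0.936% of all genes. Same-numbered libraries of these groups varied together, and the count was also 0 with the replicate number as a block. Within all 3 such pairs sgRNA 1 was the lower for 7 of the 10 genes, as it was for 20.6% of all genes tested: Ripk1, Ripk3, Mlkl, Casp8, Fas, Casp1 and Casp4, with differences from -0.69 (Fas) to -0.03 (Ripk3) and none higher in all pairs. Macrophage markers summed to 182 to 196 CPM in sgRNA 1 and 210 to 287 in NTC progenitors, and progenitor markers, led by Mpo, to 13840 to 19780 and 18780 to 26900. Their part was not tested. The KO effect differed between macrophages and progenitors for 6 genes, all more positive in macrophages: Zbp1 (5.36 ± 0.59), Tnfsf10 (3.61 ± 0.64), Mlkl (3.01 ± 0.27), Casp4 (1.79 ± 0.23), Casp1 (1.19 ± 0.24) and Ripk3 (0.97 ± 0.18), beside 13.6% of all genes.

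**Figure D3:**
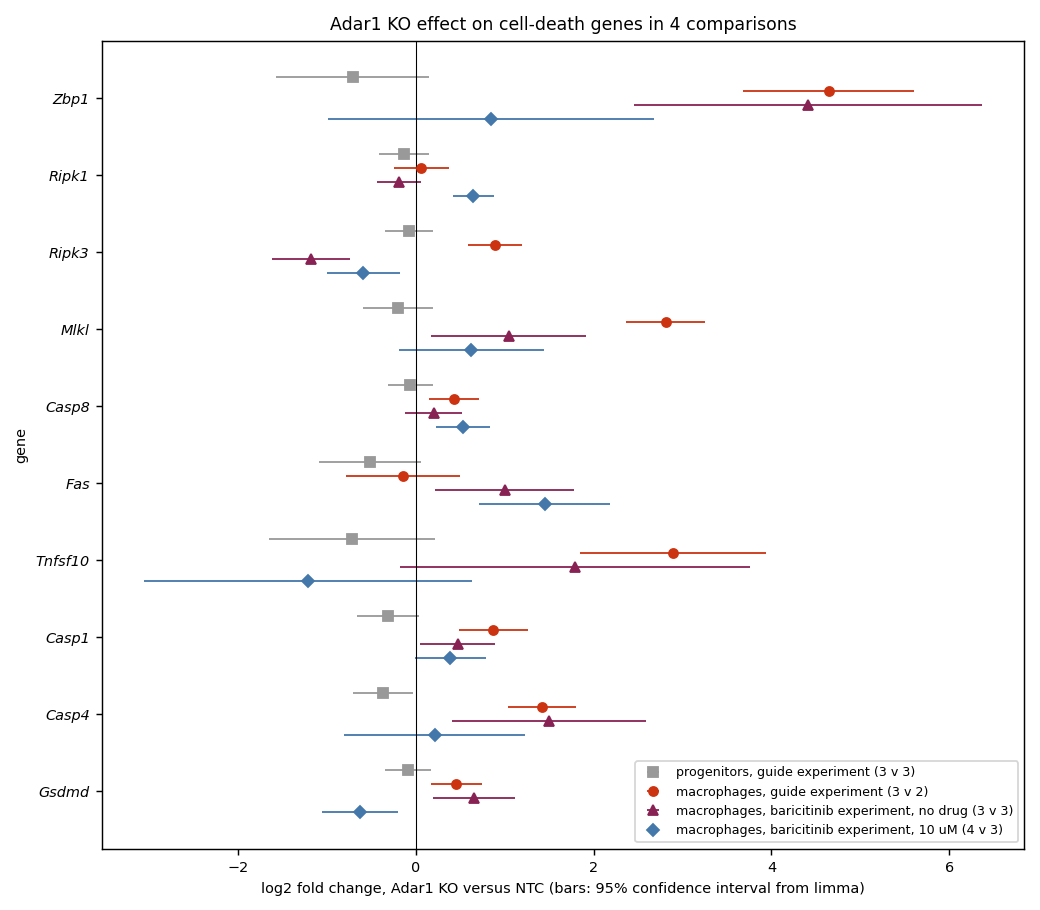
Log2 fold change of Adar1 KO (sgRNA 1) over NTC (horizontal axis) for each of the 10 genes in 4 comparisons, progenitors and macrophages of the earlier experiment and macrophages of the baricitinib experiment without drug and at 10 uM, with bars for the 95% interval of the limma fit on all libraries. Zbp1 lies far to the right of 0 in both comparisons of untreated macrophages and nearer to it at 10 uM, and Ripk3 in untreated macrophages lies on opposite sides of 0 in the 2 experiments.

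From NTC progenitors to macrophages 7 of the 10 genes were called beside 71.8% of all genes, a share at the background and no result about the 10 as a set. Here Zbp1 (3.82), Fas (2.29) and Gsdmd (1.03) rose, and Ripk3 (-3.33), Mlkl (-2.93), Casp4 (-0.60) and Ripk1 (-0.44) fell. Ripk3 went from 6.21, 6.19 and 6.03 to 2.80 and 2.82, and Mlkl from 5.99, 6.18 and 5.83 to 3.27 and 2.87, so both necroptosis effectors were far higher in every progenitor library. With sgRNA 1, 8 were called (71.3% of all genes, again near the background), and Mlkl was not among them, at 5.81, 5.92 and 5.68 in progenitors and 6.00, 6.15 and 5.49 in macrophages (0.07, adjusted p = 0.72). Zbp1 rose by 9.18 ± 0.39 and Ripk3 fell by 2.36.

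The sgRNA 2 libraries share no normalization with NTC cells, so they are set only against their own progenitors, and their levels are given beside the others without a test. Adar was 4.35, 4.56 and 4.36 in progenitors and 7.02, 7.00, 7.02, 7.03 and 6.99 in macrophages (2.59). Zbp1 went from -1.79, -1.66 and -1.92 to 6.96, 7.01, 6.95, 6.94 and 7.07 (8.77 ± 0.09, adjusted p = 2.97e-13, with 4.8 to 6.6 estimated counts in progenitors, so the size of this rise is loosely measured), Ripk3 from 6.50, 6.52 and 6.42 to 4.26, 4.07, 4.08, 4.09 and 4.33 (-2.31), and Tnfsf10 from 0.75, 0.86 and 0.97 to 3.76, 3.72, 3.70, 3.72 and 3.79 (2.88). The macrophage libraries lay wholly above the progenitors for Zbp1 and Tnfsf10 and wholly below them for Ripk3. Mlkl was 6.14, 6.21 and 6.03 in progenitors and 6.14, 5.82, 5.75, 5.96 and 5.92 in macrophages, with overlap (-0.21, adjusted p = 0.0466). In all 9 of the 10 genes were called, 7 higher and 2 lower, beside 81.3% of all genes, a share near the background. The Mlkl call was lost when any of 6 of the 8 libraries was left out (adjusted p 0.059 to 0.158), the exceptions being progenitor replicate 3 and macrophage replicate 1, and so was that of Ripk1 (0.30, adjusted p = 0.0306, then 0.0529 to 0.11) for 6 of 8, the exceptions being replicate 2 of each group.

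Among unedited early cells, BM monocytes were compared with BM progenitors. Zbp1 was 4.17, 4.46 and 4.44 in monocytes and 0.89, 1.95 and 1.66 in progenitors (2.86 ± 0.75, adjusted p = 0.0291). Fas was 4.51, 4.88 and 4.78 against 1.1, 2.69 and 1.97 (2.79 ± 0.57, adjusted p = 0.00969), and Casp1 6.79, 6.90 and 7.09 against 4.62, 5.31 and 5.11 (1.91 ± 0.23, adjusted p = 7.07e-04). Monocytes were higher in every library for these 3 genes. The same was so for Mlkl, at 6.16, 6.10 and 6.21 against 4.87, 4.69 and 4.79, but it was not called. The fit shares an estimate of spread over the set, in which ER-Hoxb8 progenitors ranged from 4.15 to 6.39 for Mlkl. In all 7 of the 10 genes rose and none fell (13.8% of all genes called), the others being Ripk3 (0.82), Casp8 (0.94), Casp4 (1.87) and Gsdmd (1.06). Leaving out any of the 6 libraries brought the count down to between 1 and 3: to 1 without BM progenitor replicate 1, to 3 without progenitor replicate 2 and to 2 without any other. Neutrophil markers, led by Ngp, summed to 506 to 9596 CPM in monocytes and 316 to 9979 in progenitors, lymphoid markers, led by Nkg7, to 88.2 to 163 and 288 to 898, progenitor markers, led by Mpo, to 5321 to 8549 and 6910 to 16430, and macrophage markers, led by Csf1r, to 1120 to 1366 and 125 to 175. Of the endothelial markers, Cdh5 was lower in monocytes (-4.66, adjusted p = 0.00319) and Pecam1 was not called. Their part was not tested. Of the 16 inflammasome genes 15 were tested and 10 rose, with Nlrp1b (2.52), Naip2 (2.64), Pycard (1.75) and Ninj1 (1.76) at the smallest adjusted p, a median of 1.75 against -0.09 over all genes.

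ER-Hoxb8 progenitors were higher than BM progenitors for 6 of the 10 genes (25.5% of all genes called), among them Fas at 6.10, 5.34 and 3.80 against 1.1, 2.69 and 1.97 (3.15 ± 0.57, adjusted p = 0.00188), with no overlap. Casp4 (2.13), Casp1 (1.50), Casp8 (1.19), Ripk1 (1.17) and Gsdmd (0.98) were the others, and 3 were called without BM progenitor replicate 1. Neutrophil markers summed to 12 to 38.3 CPM in ER-Hoxb8 progenitors and to 316 to 9979 in BM progenitors, led by Ngp, and lymphoid markers to 0.758 to 1.29 and 288 to 898. Macrophage markers summed to 431 to 4035 CPM against 125 to 175, and progenitor markers to 32.9 to 4083 against 6910 to 16430. The endothelial markers Pecam1 (-3.48, adjusted p = 1.13e-04) and Cdh5 (-6.38, adjusted p = 8.94e-05) were lower in ER-Hoxb8 progenitors. Their part was not tested. Day 4 cells against ER-Hoxb8 progenitors gave 0 calls among the 10 genes in limma (0 at an unadjusted p under 0.05) and 0% of all genes. The replicate numbers paired these libraries, and the count was 0 with the block too, and 1 without ER-Hoxb8 progenitor replicate 2. Against BM monocytes, day 4 cells had lower Ripk3, at 5.41, 5.84 and 6.29 against 7.03, 7.19 and 7.24 (-1.31, adjusted p = 0.00314), and lower Mlkl, at 4.96, 4.38 and 4.91 against 6.16, 6.10 and 6.21 (-1.41, adjusted p = 0.0461). Monocytes were above in every library, and these 2 were the only calls among the 10 genes (17.5% of all genes), with 1 left when any of the 6 libraries was left out. In day 4 cells neutrophil markers summed to 40.1 to 55.7 CPM, lymphoid markers to 0.479 to 1.43, progenitor markers to 36.9 to 47.0 and macrophage markers to 3364 to 6393, all apart from the monocyte sums above, and their part in these 2 calls was not tested. Pecam1 was lower in day 4 cells than in monocytes (-3.11, adjusted p = 4.13e-04) and Cdh5 was not called, and their part was also not tested.

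**Figure D4:**
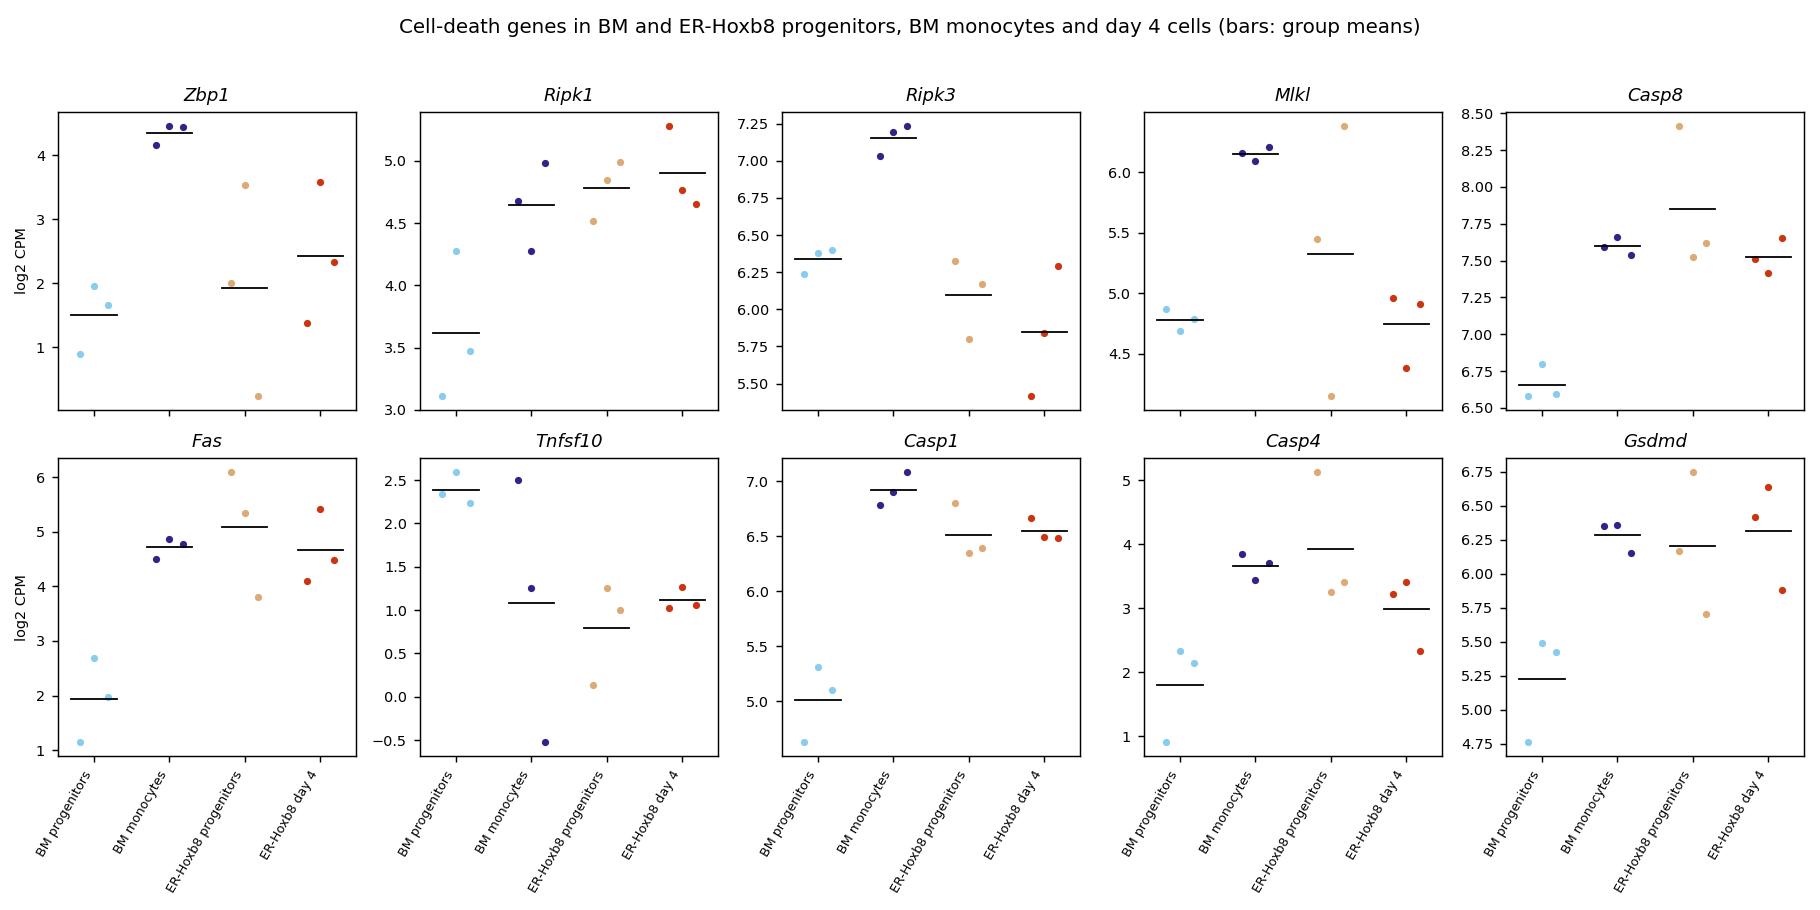
Level of the 10 genes (log2 CPM, vertical axes) in BM progenitors, BM monocytes, ER-Hoxb8 progenitors and ER-Hoxb8 day 4 cells, with 1 point per library and bars at group means. BM monocytes sit above BM progenitors for Zbp1, Fas and Casp1, and ER-Hoxb8 progenitors scatter widely for Zbp1, Mlkl and Fas.

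In the set with cells from brain, unedited ER-Hoxb8 MLCs stood out for Zbp1, although their Adar gene was not targeted. Zbp1 was 6.86 to 9.14 (median 8.12) in ER-Hoxb8 MLCs, 1.01 to 3.07 (median 2.19) in BMD MLCs, -1.83 to 1.66 (median 1.02) in microglia, 1.10, 2.62 and 0.79 in ER-Hoxb8 macrophages and 2.05, 1.22 and 2.14 in BMD macrophages. Every ER-Hoxb8 MLC library lay above every other library of the set, while the other 4 groups overlapped their neighbours in level. The difference was 6.61 ± 0.65 from ER-Hoxb8 macrophages (adjusted p = 2.34e-08), 5.97 ± 0.53 from BMD MLCs (adjusted p = 1.37e-08) and 7.54 ± 0.49 from microglia (adjusted p = 3.40e-12, or 7.24 without microglia replicate 8). Against ER-Hoxb8 macrophages it was 6.83 with GFPHox libraries only and 6.40 with WTHox libraries only.

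By group median ER-Hoxb8 MLCs were the highest of the 5 groups for 8 of the 10 genes, all but Ripk3 and Casp8, with Ripk1 at 5.54, Casp1 at 7.45 and Gsdmd at 6.81. Tnfsf10 was 4.26 to 5.41 (median 4.73) in ER-Hoxb8 MLCs, 2.08 to 3.15 (median 2.32) in BMD MLCs, 1.96 to 2.89 (median 2.66) in microglia, 0.78, 0.94 and -0.62 in ER-Hoxb8 macrophages and -1.04, -0.72 and 0.50 in BMD macrophages. Both MLC groups were wholly above their cultured counterparts, by 4.40 ± 0.43 (ER-Hoxb8, adjusted p = 1.72e-08) and 2.88 ± 0.43 (BMD, adjusted p = 1.82e-05). Casp4 was 5.86 to 7.77 (median 6.54) in ER-Hoxb8 MLCs, 4.19 to 4.70 (median 4.45) in BMD MLCs and 2.78 to 6.17 (median 3.54) in microglia, against 3.76, 3.61 and 3.27 in ER-Hoxb8 and 3.34, 3.73 and 2.10 in BMD macrophages. Here too both MLC groups were wholly above cultured cells (3.06, adjusted p = 7.08e-05, and 1.41, adjusted p = 0.0396). The BMD call of Casp4 was lost when any library but BMD macrophage replicate 2 or BMD MLC replicate 6 was left out (adjusted p 0.0505 to 0.266), and that of Tnfsf10 was kept throughout. Without BMD macrophage replicate 3 the Casp4 difference was 0.93. That library, named wBM where the others of its group are named Mac, was also the lowest of the group for Ripk1 (3.40 against 4.93 and 5.29). It was the highest for Mlkl (4.97 against 3.21 and 3.47) and Ripk3 (6.55 against 5.35 and 4.89).

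Mlkl and Fas were lowest in microglia. Mlkl was -1.05 to 4.93 (median 0.71) there, 1.76 to 3.65 (median 2.77) in BMD MLCs and 4.27 to 6.68 (median 5.28) in ER-Hoxb8 MLCs, and the high microglia value was replicate 8. Fas was -3.62 to 2.33 (median 1.10) in microglia, the lowest being replicate 8 at the lowest value of the set, 0.91 to 4.18 (median 3.58) in BMD MLCs and 4.71 to 7.31 (median 6.27) in ER-Hoxb8 MLCs. ER-Hoxb8 MLCs were above microglia by 4.41 for Mlkl (4.91 without replicate 8) and by 5.61 for Fas (5.09 without it). Casp8 went the other way, at 7.75 to 9.39 (median 8.59) in microglia against 6.85 to 8.27 (median 7.53) in ER-Hoxb8 MLCs (-1.04, adjusted p = 2.86e-04, or -0.93 without replicate 8) and 7.28 to 7.87 (median 7.68) in BMD MLCs (-0.88, adjusted p = 0.0025, or -0.78 without it), with overlap at the edges. Ripk3 was widely spread in ER-Hoxb8 MLCs, from -2.44 in replicate 4, about 2.7 estimated counts, to 7.19. It was not called against microglia (0.89, adjusted p = 0.476) and was called without that library (2.18, adjusted p = 0.0035).

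**Figure D5:**
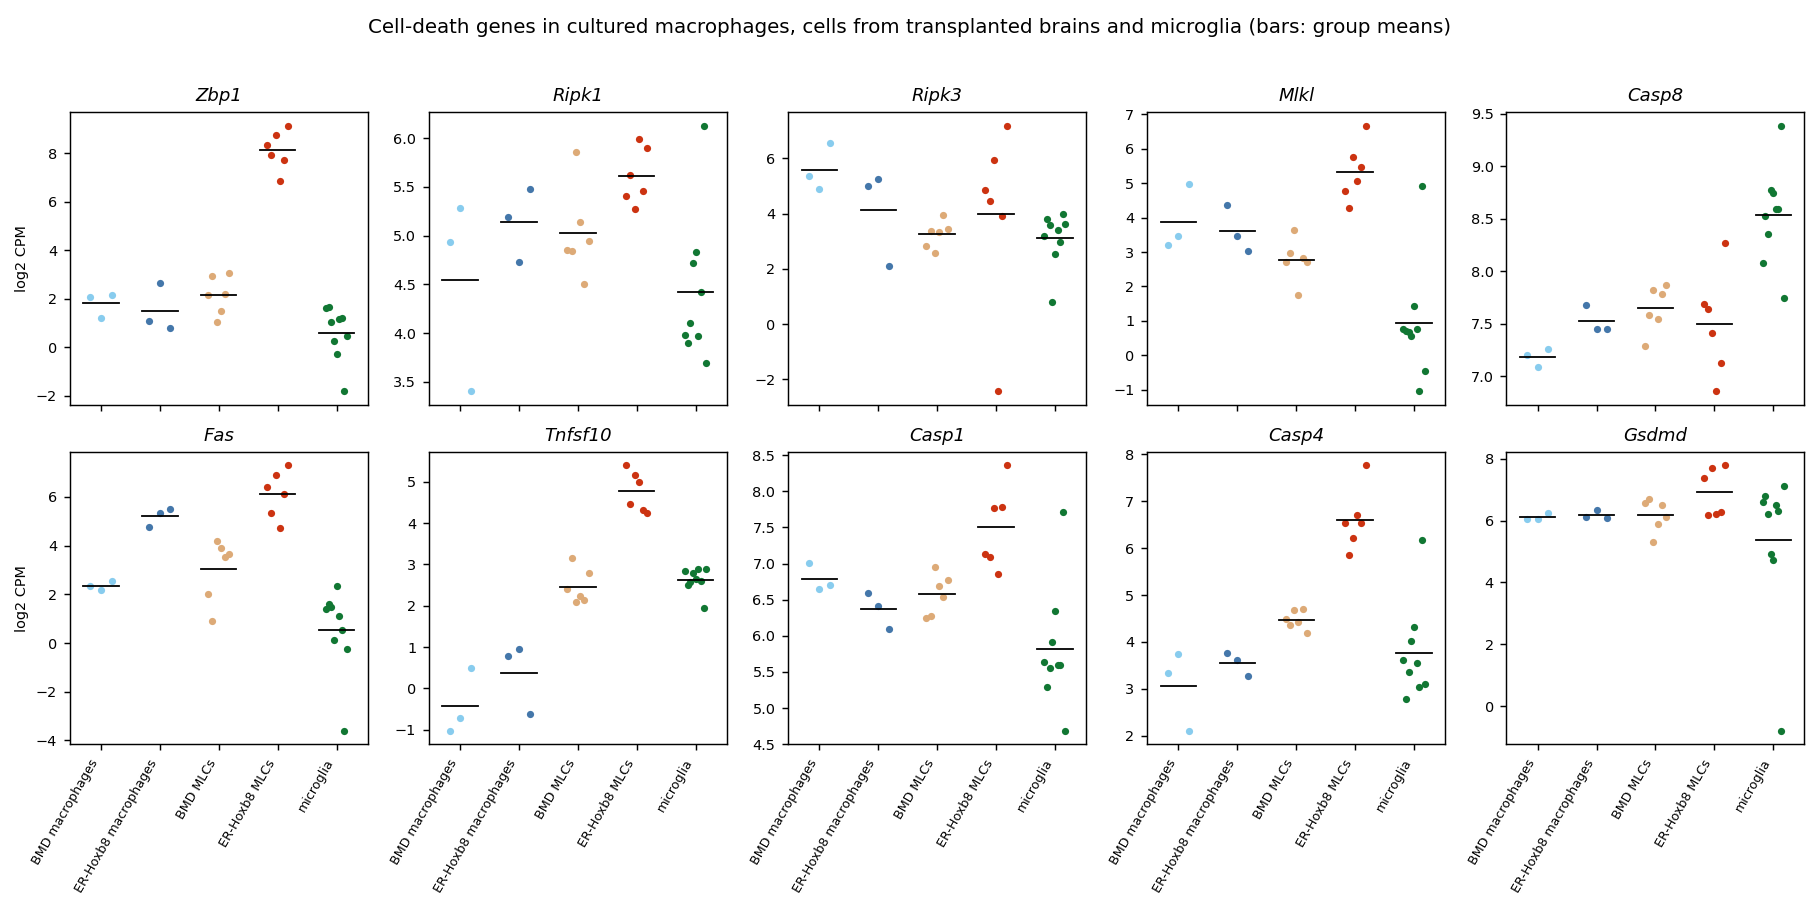
Level of the 10 genes (log2 CPM, vertical axes) in cultured BMD and ER-Hoxb8 macrophages, BMD MLCs, ER-Hoxb8 MLCs and microglia, with 1 point per library and bars at group means. ER-Hoxb8 MLCs lie wholly above the other groups for Zbp1 and Tnfsf10 and overlap them for the other genes, and microglia replicate 8 is the isolated point for Gsdmd, Mlkl and Fas.

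Of the 10 genes, 4 rose in ER-Hoxb8 MLCs over ER-Hoxb8 macrophages (34.8% of all genes called), with Casp1 (1.1) beside Zbp1, Tnfsf10 and Casp4, and 5 without microglia replicate 8, when Mlkl (1.72) passed. The Casp1 call was lost without any of the 3 macrophage libraries or MLC replicate 3, 5 or 6 (adjusted p 0.0519 to 0.122). Over BMD MLCs 5 rose in ER-Hoxb8 MLCs (15.2% of all genes), Fas (3.11) and Mlkl (2.57) among them, and 6 without that library. Against microglia, ER-Hoxb8 MLCs had 7 genes higher and Casp8 lower (33.9%), and BMD MLCs had Fas (2.51), Mlkl (1.85) and Zbp1 (1.57) higher and Casp8 lower (20.5%). The latter count was 7 without microglia replicate 8 and 2 without BMD MLC replicate 2. Shares of all genes were not counted in fits of this set with a library left out. Changed counts in those fits are therefore no result about the 10 genes. BMD MLCs had 2 genes higher than BMD macrophages, Tnfsf10 and Casp4 (30.6%), of which Casp4 was the one lost with single libraries. ER-Hoxb8 and BMD macrophages differed for 0 of the 10 genes in limma (1 at an unadjusted p under 0.05, and 1.96% of all genes called). Fas, at 4.77, 5.36 and 5.50 against 2.35, 2.20 and 2.53 with no overlap, missed the threshold (2.85 ± 1.02, adjusted p = 0.239) and passed it without microglia replicate 8 (adjusted p = 0.0325).

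Markers of other cell types were also read in the cells sorted from brain. Neutrophil markers, led by Ngp, summed to 4771 to 34280 CPM (median 32240) in BMD MLCs, 263 to 44400 (median 2216) in ER-Hoxb8 MLCs and 439 to 6443 (median 2034) in microglia, against 3.21 to 38.5 in cultured macrophages, with none of the 6 markers at the floor in cells from brain. Lymphoid markers summed to 29.9 to 458 in ER-Hoxb8 MLCs (median 97.9, led by Nkg7), 8.28 to 104 in BMD MLCs and 2.01 to 27.5 in microglia (both led by Cd3d). Macrophage markers summed to 1568 to 5749 CPM (median 2716) in ER-Hoxb8 MLCs against 6226 to 9193 (median 7546) in ER-Hoxb8 macrophages, and to 3759 to 6170 in BMD MLCs against 6551 to 8590 in BMD macrophages. In microglia the macrophage sum was 2591 to 17850 (median 5589). Neural markers, led by Mbp, summed to 61.6 to 173 CPM in ER-Hoxb8 MLCs against 18.4 to 37.4 in ER-Hoxb8 macrophages, and to 14.1 to 88.2 in BMD MLCs against 25.7 to 57.8 in BMD macrophages. Endothelial markers, led by Pecam1, summed to 24.6 to 37.2 CPM in ER-Hoxb8 MLCs, 9.32 to 23.5 in BMD MLCs and 31.8 to 67.9 in microglia, against 5.63 to 13.5 in cultured macrophages. Whether these transcripts come from other cells, and their part in the MLC results, was not tested. The 4 immediate early genes summed to 78.0 to 415 CPM in ER-Hoxb8 MLCs, 40.7 to 148 in BMD MLCs and 19.3 to 91.6 in microglia. They summed to 130 to 267 in ER-Hoxb8 macrophages and 245.5 to 344 in BMD macrophages, and their part was also not tested. Beside the 10 genes, and where 34.8% of all genes were called, ER-Hoxb8 MLCs over their macrophages had 6 of 6 interferon-stimulated genes higher (median 3.96 against -0.15 for all genes), 4 of 17 partner genes higher and 1 lower (Tnfaip3, 3.33, and Ikbkg, -2.54), and 5 of 15 tested inflammasome genes higher and 2 lower (Il1b, 6.39, Casp12, 7.20, and Il18, 5.78). Of 17 apoptosis genes none rose and 7 fell, among them Bax (-1.49) and Bcl2l11 (-2.33). The partner count is under the share of all genes and the apoptosis count near it, so neither is a result about its list, and the inflammasome count is not tested against it.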

How the data were processed

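RNA was sequenced from 92 libraries of mouse myeloid cells. According to the labels, the authors trimmed reads with fastp, checked them with FastQC and MultiQC, quantified transcripts with kallisto 0.46.0 against GRCm39 cDNA, summarized counts with tximport and deposited log2 CPM normalized by TMM in edgeR. The deposited log2 table has 29957 lines, 29956 with a gene name, and the line without a name held 0.0023 to 0.0584% of a library. Columns that share a lowest value were taken as normalized together, which gave 6 sets, and no comparison crosses sets. Depth per library, given with the groups, was estimated as the inverse of the most frequent small CPM value in the library, taken as 1 count. Where to look for that value was set from the lowest value of the set with a prior count of 2. No pair of libraries had identical values (highest Spearman correlation 0.9552).

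Each set was fitted with limma 3.58.1 in R 4.3.3 (group means, empirical Bayes with a trend, Benjamini-Hochberg over all tested genes) in 30 comparisons, with a gene tested when its CPM exceeded 1 in 3 libraries, or 6 in the set with cells from brain. Genes tested numbered 11152 (baricitinib), 11008 (sgRNA 1 and NTC), 10698 (sgRNA 2), 12056 (early cells) and 12518 (macrophages and cells from brain). Intervals are at the 95% level, and ± gives the standard error. Other work used Python 3.11.15, numpy 2.4.6, pandas 2.3.3 and matplotlib 3.10.9. The fit was also tested on simulated data.

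The members and the gene lists were chosen with earlier results of these data known. Genes named beyond the 10 were, in each list and comparison, up to 4 of those called with the smallest adjusted p, and for Zbp1 and Mlkl the 5 tested genes with the highest Pearson r. Alternatives were log2(CPM + 1), no filter, quantile normalization, array weights, the replicate number as a block, a fit of the compared groups only, an added fold limit of 2 (log2), subsets of the brain libraries and each library left out in turn. Fits without Adar1 KO 0.4 uM replicate 2 or without microglia replicate 8 were chosen after seeing the data. Where leaving out a library left a lone sample, it was assumed to vary like the other groups. Reads, protein and RNA editing were not analysed here.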

Additional observations from a re-analysis of the deposited data

Results flagged for a closer look

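In 77 combinations of a gene (11 in all, Adar included) and a group of 4 to 10 libraries, 9 values lay far from the rest of their group, measured by the gap to the nearest library over the range of the group. Chance flags about 1 in 20 groups. Of the 9, 6 belong to microglia replicate 8: Ripk1 6.13, Mlkl 4.93 and Casp4 6.17 log2 CPM as the highest of 9 libraries, and Fas -3.62, Tnfsf10 1.96 and Gsdmd -0.81 as the lowest. The others were Ripk3 in microglia replicate 4 (0.78, lowest of 9), Ripk3 in ER-Hoxb8 MLC replicate 4 (-2.44, lowest of 6) and Casp1 in NTC macrophages at 0.4 uM baricitinib, replicate 4 (6.28, highest of 4). Adar1 KO 0.4 uM replicate 2 was not among them, since groups of 3 were not looked at in this way. The cause of these values was not tested.

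Differences between groups in the effect of Adar1 KO passed the test of the difference itself in the following cases. Between 10 uM and no baricitinib the log2 difference was -3.57 for Zbp1, 0.84 for Ripk1 and -1.28 for Gsdmd. Between macrophages and progenitors it was 5.36 for Zbp1, 0.97 for Ripk3, 3.01 for Mlkl, 3.61 for Tnfsf10, 1.19 for Casp1 and 1.79 for Casp4. Ripk3 moved in opposite directions in the untreated macrophages of the baricitinib experiment (log2 fold change -1.18) and in the earlier experiment with the same guide (0.89), with no overlap of KO and NTC libraries in either. Those sets of libraries do not share a normalization, and the difference between them was not tested.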

How the results depend on the processing

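Of 100 values (10 genes in 10 comparisons), 98 kept their direction and their side of the threshold with log2(CPM + 1), 91 with no filter, 90 with quantile normalization, 80 with array weights and 95 with the replicate block, as did 83 of 97 in fits of the compared groups only. Array weights moved 16 past the threshold and no filter moved 9 below it. With single libraries left out, 751 of 820 values kept both. Ripk3 in ER-Hoxb8 MLCs against microglia was called, as higher, without ER-Hoxb8 MLC replicate 4 (adjusted p = 0.0035). Reversed values were not called in the fits that reversed them. They were Casp4 in NTC macrophages at 10 uM against none (0.0321 quantile, 0.0698 weights), Ripk1 in sgRNA 1 against NTC macrophages (-0.0274 quantile, -0.0258 weights), Casp8 in sgRNA 2 macrophages against progenitors (-0.0002 weights), Ripk3 in ER-Hoxb8 MLCs against ER-Hoxb8 macrophages (0.23 with log2(CPM + 1), 0.24 quantile, 0.35 with the replicate block, 0.99 with GFPHox libraries only), Casp8 there (0.19 quantile, 0.0539 weights, 0.0518 GFPHox only) and Ripk3 in ER-Hoxb8 MLCs against microglia (-0.21 with WTHox libraries only). The cause was not tested.

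Counts of the 10 genes moved by over 1.5 times as follows. Shares of all genes called were counted only in the main fits and in most of those without KO 0.4 uM replicate 2. The other counts here, and those with each library left out in turn, have no such background. They are no result about the 10 genes. With a log2 fold change of at least 2 required as well, KO against NTC gave 1, 1, 1, 2 and 0 calls at 0, 0.0006, 0.016, 0.4 and 10 uM, KO cells against no drug 0, 1 and 2 at 0.016, 0.4 and 10 uM, NTC cells at 10 uM 1, and the change of the KO effect at 10 uM 1. The same limit gave 3 for sgRNA 1 against NTC macrophages, 4 each for macrophages against progenitors in NTC, sgRNA 1 and sgRNA 2 cells (8 for NTC and sgRNA 1 together), 3 for the difference between stages, 2 for BM monocytes and 2 for ER-Hoxb8 progenitors against BM progenitors, 0 for day 4 cells against monocytes (4 in the early set together), 1 for BMD MLCs against macrophages, 1 for BMD and 5 for ER-Hoxb8 MLCs against microglia, and 15 over all comparisons of that set.

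With no filter, KO against NTC gave 2, 3 and 3 at 0, 0.0006 and 0.4 uM, KO at 0.4 uM against none 2, NTC at 10 uM 1, BM monocytes against progenitors 3, day 4 cells against monocytes 1 (9 in the early set together), and BMD MLCs against BMD macrophages 1. With array weights, KO against NTC gave 8, 10 and 8 at 0, 0.0006 and 10 uM, KO at 0.4 uM against none 7, NTC at 0.4 and 10 uM 1 and 4, the change of the KO effect 7, ER-Hoxb8 against BMD macrophages 2, and BMD MLCs 4 against macrophages and 7 against microglia. In fits of the compared groups only, KO against NTC gave 7, 8 and 0 at 0, 0.0006 and 0.4 uM, KO at 0.016 and 0.4 uM against none 0 and 1, NTC at 10 uM 4, the change of the KO effect 5, ER-Hoxb8 against BM progenitors 3, ER-Hoxb8 against BMD macrophages 1 and BMD MLCs against macrophages 4. With log2(CPM + 1), NTC at 10 uM and ER-Hoxb8 against BMD macrophages each gave 1, and with the replicate block the latter gave 1. Without KO 0.4 uM replicate 2 (chosen after seeing the data), KO against NTC gave 8, 10 and 9 at 0, 0.0006 and 10 uM, NTC at 0.4 uM 1 and the change of the KO effect 6. Without microglia replicate 8 (also chosen after seeing the data), ER-Hoxb8 against BMD macrophages gave 1.

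With each library left out in turn, counts ranged from 2 to 3 for KO against NTC without drug, 3 to 4 at 0.0006 uM, 5 to 9 at 0.016 uM and 3 to 6 at 0.4 uM. They ranged from 0 to 2 for KO at 0.016 uM and 1 to 6 for KO at 0.4 uM against none, and 0 to 2 for NTC at 10 uM. For BM monocytes against progenitors the range was 1 to 3, for ER-Hoxb8 against BM progenitors 3 to 6, for day 4 cells 0 to 1 against ER-Hoxb8 progenitors and 1 to 1 against monocytes, and for BMD MLCs 1 to 2 against macrophages and 2 to 7 against microglia. Fold changes that reversed in this way ranged from -0.23 to 0.15 (Casp4, NTC at 10 uM), -0.22 to 0.0921 (Casp1, change of the KO effect), -0.0672 to 0.13 (Ripk1) and -0.46 to 0.0790 (Fas) in sgRNA 1 macrophages, -0.0089 to 0.0266 (Casp8, sgRNA 2), and -1.13 to 1.17 (Ripk3) and -0.18 to 0.10 (Casp8) in ER-Hoxb8 MLCs against their macrophages.

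Quantile normalization moved the median of all genes by over 0.1 in 6 comparisons: -0.12 for sgRNA 1 against NTC macrophages, -0.14 for the difference between stages, 0.12 for ER-Hoxb8 against BM progenitors, 0.13 for ER-Hoxb8 MLCs against their macrophages, -0.11 for BMD MLCs against microglia and 0.18 for ER-Hoxb8 against BMD MLCs. The share of called genes that were higher went from 66.6 to 48.6% in the first, from 72.7 to 57% in the second, from 44.4 to 55% in the third, and also from 57.1 to 46.3% for KO against NTC at 0.4 uM and from 40 to 52.5% for day 4 cells against monocytes. Depth limits Zbp1, at about 3.9 estimated counts in the lowest NTC library at 10 uM, 3.4 in microglia replicate 8, 4.8 to 6.6 in sgRNA 2 progenitors and 6.9 in the lowest sgRNA 1 progenitor library.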

Other observations

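NTC macrophage replicate 2 has a lowest value of its own and entered no comparison. Its levels in log2 CPM were 3.54 for Zbp1, 4.65 for Ripk1, 3.05 for Ripk3, 2.77 for Mlkl, 6.97 for Casp8, 4.68 for Fas, 1.30 for Tnfsf10, 5.69 for Casp1, 2.75 for Casp4, 6.84 for Gsdmd and 5.86 for Adar. Among the unedited groups left out of the text above, Tnfsf10 in BM monocytes was 2.50, 1.26 and -0.53, a wide spread, against 2.34, 2.59 and 2.23 in BM progenitors.

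These values are subject to several limits. RNA levels do not show whether ZBP1, MLKL or gasdermin D protein was present, active or cleaved, nor whether cells died. Groups of 3 to 4 libraries leave small changes undetected. The guide lines are sorted populations, sgRNA 2 has no NTC group in its set, and the labels and the treatment protocol give different middle doses. NTC and KO libraries of the earlier experiment, of the baricitinib experiment and of sgRNA 2 were normalized apart, so their levels are not compared. Cells sorted from brain carried neutrophil and lymphoid transcripts.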
